A study of Mus musculus with 36 samples.

Results

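Hmga2, Hmga1, Igf2bp2, Arid3b, Plagl2, Nr6a1, Igf1r, Insr, Zfp644 and Cdc34 are 10 genes that are widely known, or predicted, as targets of the let-7 family of miRNAs, and several of them act in the embryo and in tumours. Ago2-bound RNA was measured in mouse colonic tumours by HEAP (Halo-enhanced Ago2 pulldown), which resembles CLIP and in which a Halo tag on Ago2 binds covalently to a resin. Every peak that the authors' annotation assigned to 1 of the 10 genes was taken, which gave 29 peaks out of 7730 in the deposited table. Each of the 10 genes had at least 1 peak. Plagl2 had 10 peaks, Cdc34 5, Nr6a1 4, Zfp644 3, Insr 2, and Hmga2, Hmga1, Igf2bp2, Arid3b and Igf1r 1 each.

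The 12 tumours came from C57BL/6 mice, and every tumour carried Halo-Ago2/+ and Villin-CreER/+ together with floxed Apc, written Apc(fl/fl). Villin drives the tamoxifen-inducible Cre in gut epithelium, so Apc was deleted in both groups. The 6 control tumours had wild-type K-ras and are called WT, and the 6 experimental tumours also carried K-Ras-G12D/+ and are called G12D. Mice aged 8 to 12 weeks received 200 µl of 4-hydroxytamoxifen (5 mg/ml) by enema. Tissue of every tumour was crosslinked with UV light in 3 exposures of 400 mJ/cm2, which fixes Ago2 to the RNA it holds, and the age at collection is given only as the time when animals became moribund. Tumour lawns were scraped from the colon, so the material is bulk tissue. The labels place WT and G12D replicates 1 to 3 in batch 1 and replicates 4 to 6 in batch 2, and do not say what a batch is. They number the tumours without saying that each comes from its own animal, so p-values measure only how far these samples spread, which may in part be technical.

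The let-7 miRNAs are a family that rises as cells leave the embryonic state and that lowers the output of mRNAs carrying its sites. A miRNA loaded into Ago2 pairs with a target mainly through its seed, bases 2 to 8 counted from its 5′ end, and Ago2 pulldown marks the mRNA fragments held in this way. Hmga2, with several let-7 sites in its 3′ UTR, is the best studied of these targets. In the intestine let-7 is known to restrain growth and tumour formation, and the RNA-binding protein Lin28 blocks its maturation.

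The mature sequences below, from RefSeq (GRCm38.p6), are shown because site calls rest on the seed, with bases 2 to 8 in capitals. All 9 tested family members, let-7a to let-7g, let-7i and miR-98, share the seed GAGGUAG, and the 3 most abundant are given first, followed by let-7a, let-7g and miR-98. The 2 miR-196 sequences are shown because their seed, AGGUAGU, overlaps it.
let-7i-5p: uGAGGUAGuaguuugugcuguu
let-7b-5p: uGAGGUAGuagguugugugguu
let-7c-5p: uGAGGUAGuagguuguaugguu
let-7a-5p: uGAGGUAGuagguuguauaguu
let-7g-5p: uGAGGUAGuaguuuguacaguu
miR-98-5p: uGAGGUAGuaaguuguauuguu
miR-196a-5p: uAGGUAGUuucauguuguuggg
miR-196b-5p: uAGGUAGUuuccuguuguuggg

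The mRNA letters that pair with the let-7 seed are CTACCTC, called a 7mer-m8 site, and with an A behind them an 8mer site. Pairing with bases 2 to 7 of miR-196 needs CTACCT, which lies inside the let-7 site. The site calls are the authors' own, and peak sequences were not used here. A let-7 8mer or 7mer-m8 site was listed in 8 of the 29 member peaks, on 7 of the 10 genes. Over all annotated peaks it was 684 of 7585, or 9.02%, against 27.6% of the member peaks, a difference that follows from choosing known let-7 targets and was not tested. Of the 8 peaks, 7 lay in a 3′ UTR and 1 in an exon of Plagl2, whereas 37.9% of all peaks with a let-7 site lay in a 3′ UTR.

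The 8 peaks were those of Hmga2 (chr10:120362982-120363045, minus strand), Hmga1 (chr17:27563281-27563334, plus strand), Igf2bp2 (chr16:22059453-22059509, minus strand), Igf1r (chr7:68229073-68229151, plus strand), 1 of 2 Insr peaks (chr8:3153175-3153230, minus strand), 1 of 4 Nr6a1 peaks (chr2:38723638-38723709, minus strand) and 2 of 10 Plagl2 peaks, in the 3′ UTR (chr2:153229879-153229934, minus strand) and in an exon (chr2:153231898-153231962). Coordinates are those of the deposited annotation, 1-based, and mm10 and GRCm38 are the builds in the submitters' processing notes. All 29 peaks lay inside the RefSeq locus of their gene. The site was an 8mer in Igf2bp2, Igf1r, Insr and the Plagl2 exon, and a 7mer-m8 in Hmga2, Hmga1 and the Plagl2 3′ UTR. The Nr6a1 peak had one of each, and the Igf2bp2 peak also listed let-7 as a weaker 7mer-A1 site. The Arid3b peak listed let-7 only as a weaker 7mer-A1 site, and no Cdc34 or Zfp644 peak had an 8mer or 7mer-m8 site for let-7.

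All 8 peaks also listed miR-196 in some class of site, as did 682 of the 684 peaks with a let-7 site. In Hmga2 and Hmga1 it was a miR-196 7mer-m8 site, so for these peaks the 2 families cannot be told apart from the annotation. A neighbouring Plagl2 3′ UTR peak (chr2:153229787-153229834) had a miR-196 8mer and no such let-7 site, and lay 44 bases from the Plagl2 let-7 peak. Other strong sites on the members included the miR-17/20/93/106 family on Hmga2 and on the Plagl2 peak nearest the 3′ end, miR-23 on Nr6a1 and Zfp644, and miR-30 and miR-27 on Plagl2. Of the 29 member peaks, 10 had no 8mer or 7mer-m8 site of any listed family, against 34.9% of all annotated peaks.

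Reads recovered in peaks ranged from 30607 to 974013 per library. WT replicates 5 and 6 stood apart, with 30607 and 57037 reads and 59.8% and 34.0% of peaks at 0, against 1.14% to 5.85% in the other 10 libraries. In these libraries 14 and 9 of the 29 member peaks were at 0, against at most 1 elsewhere. A value of 0 there allows up to 13.6 normalised counts in WT replicate 5 and 7.23 in replicate 6, taking 3 reads as the floor, which covers counting error only. Values are counts divided by the authors' size factor for each library, and on that scale the median peak was higher in G12D by 1.33 on the log2 scale, or by 0.38 without WT replicates 5 and 6. Genotype differences are therefore also given relative to the median of all tested peaks. Of the colon epithelium markers, 9 of 12 had peaks, among them Epcam, Cdh1, Krt8, Vil1 and Muc2, which summed to 5554 to 36101 RPM (reads scaled to a fixed total of peak reads) in WT and 14404 to 26277 in G12D. Of fibroblast and smooth muscle markers 3 of 10 had peaks, all collagens (131 to 1786 in WT and 603 to 1702 in G12D), of leukocyte markers 1 of 10, H2-Eb1 (65.3 to 386 and 130 to 258), and of endothelial markers 0 of 6, so that Ptprc and Pecam1 had none. Their part in the results below was not tested.

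No member peak differed between G12D and WT in the main test, limma on log2(normalised count + 1) with batch as a covariate. Of 29 member peaks 0 passed an adjusted p of 0.05 and of all 7527 tested peaks 0.0% passed, and the smallest adjusted p of a member was 0.108. At an unadjusted p under 0.05 there were 10 members of 29, against 36.0% of all tested peaks, edgeR called 0 members, and DESeq2 called 4. All 29 fold changes were positive, as were 96.1% of those of all tested peaks, and 15 of 29 lay above the all-peak median. The count of positive members fell to 26 with TMM factors, to 26 with RPM and to 17 with size factors estimated anew by DESeq2. The median of the members was 1.37 on the log2 scale, or 0.04 relative to all peaks, and that of the 8 peaks with a let-7 site 0.18 relative to all peaks, against -0.03 for all 678 tested peaks with such a site. Without WT replicates 5 and 6 the value for the 8 member peaks became -0.14, and their fold changes ran from 0.0014 (Plagl2) to 0.98 (Hmga2). In no member peak did all 6 G12D libraries exceed all 6 WT libraries, which 1.7% of tested peaks did. Without WT replicate 4, 12 members passed, or 41.4%, against 45.3% of all tested peaks. In bulk tissue, fewer cells of a type and less RNA per cell cannot be told apart, and without input values a peak mixes the level of its mRNA with its binding by Ago2.

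**Figure D1:**
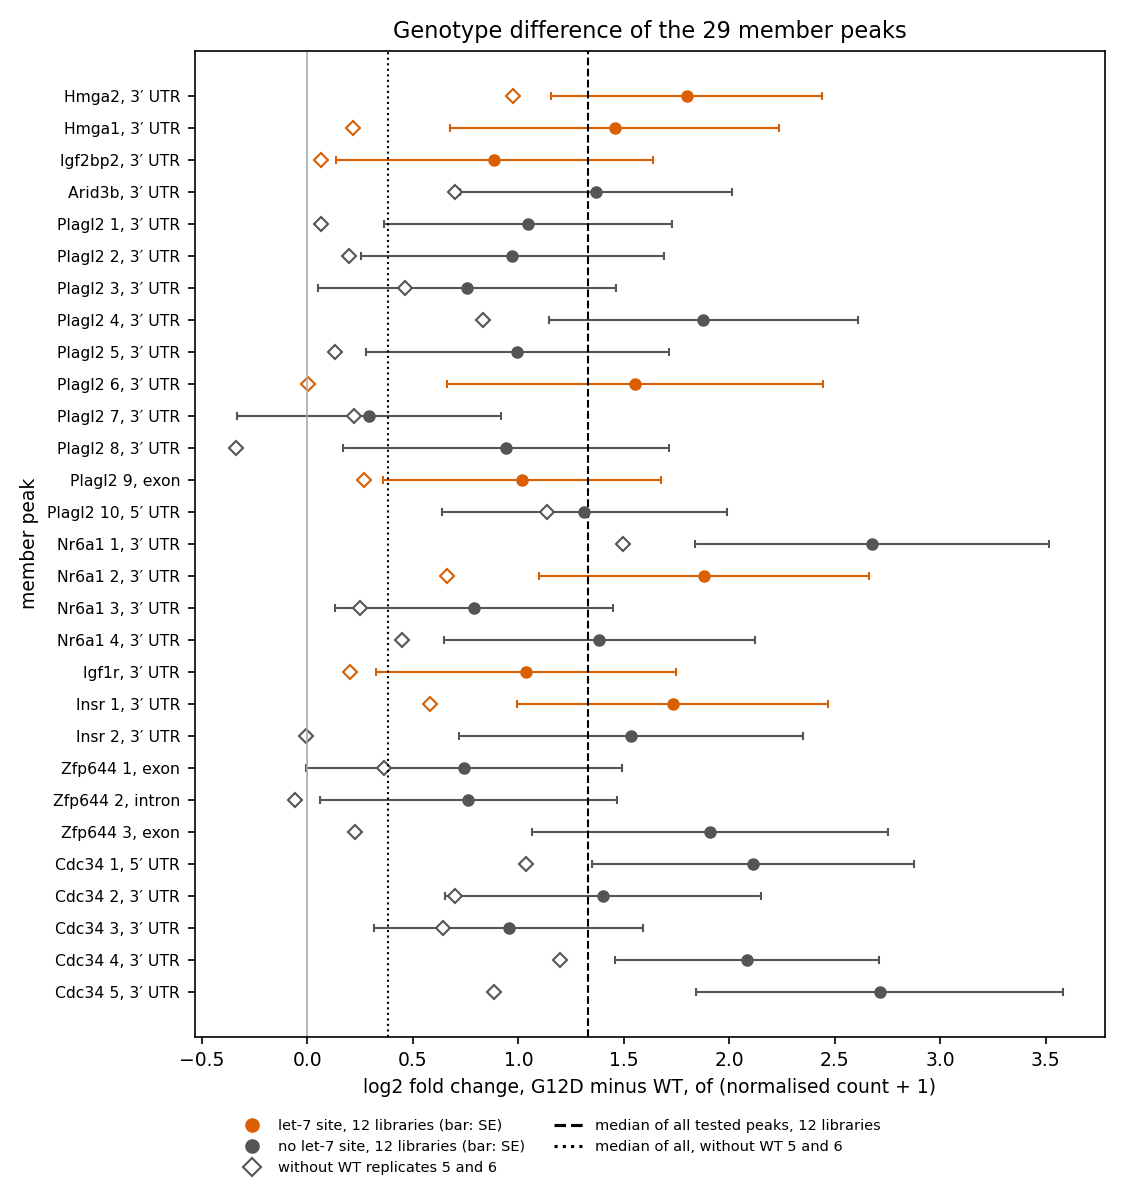
Log2 fold change of (normalised count + 1), G12D minus WT, for the 29 member peaks (filled points, bars are SE, 12 libraries; open diamonds, without WT replicates 5 and 6); orange marks peaks with a let-7 site, and peaks of 1 gene are numbered in genome order. All filled points are above 0 and scatter on both sides of the all-peak median of 1.33 (dashed); without the 2 shallow libraries that median is 0.38 (dotted) and 3 diamonds fall below 0.

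DESeq2 on the recovered reads, with the deposited size factors, called 4 member peaks as higher in G12D, on Hmga2, Nr6a1 and Cdc34 (2 peaks), against 10.1% of all tested peaks. The authors' deposited table has the same 4 members at adjusted p-values of 0.0408 for Hmga2, 0.0415 for Nr6a1, and 0.0383 and 0.0316 for the Cdc34 5′ UTR and 3′ UTR peaks, and 9.92% of its peaks as higher in G12D. Of the 4, only the Hmga2 peak had a let-7 8mer or 7mer-m8 site. With DESeq2's own size factors 0 of the 29 passed, the smallest adjusted p being 0.196. These calls are on the same libraries and share the all-peak shift described above.

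Hmga2 encodes an architectural protein of chromatin that is abundant in the embryo and returns in many tumours. Its peak had normalised counts with a lowest value of 18.1, a median of 51.1 and a highest value of 135 in WT, and 95.9, 154 and 322 in G12D. In 4 of 6 G12D tumours the value exceeded every WT tumour, and the other 2 lay below WT replicate 4 and above the remaining 5 WT tumours. G12D exceeded WT by 1.80 on the log2 scale (SE 0.64), or 0.47 relative to all peaks, with 0.71 within batch 1 and 0.16 within batch 2 (limma adjusted p = 0.108). It stood at the 91.1th percentile of all peaks in the median WT library and at the 94.9th in the median G12D library, so this peak was among the strongest in both genotypes.

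Hmga1, the close relative of Hmga2, had a weaker peak. Its normalised counts were 0, 11.3 and 30.3 in WT (lowest, median and highest, in that order here and below) and 9.26, 25.5 and 53.6 in G12D. The groups overlapped, and the 3 highest libraries were the 3 G12D tumours of batch 2. The log2 fold change of 1.46 (SE 0.78) was 0.13 relative to all peaks, and relative values differed in sign between batches, -0.56 in batch 1 and 0.74 in batch 2, while the interaction of genotype and batch did not pass (limma adjusted p = 0.369).

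Igf2bp2 encodes an RNA-binding protein that stabilises and promotes translation of growth-related mRNAs. Its peak, with an 8mer, had normalised counts of 0, 11.2 and 20.8 in WT and 4.63, 15.4 and 25.6 in G12D. Only 1 G12D tumour exceeded every WT tumour. The log2 difference was 0.89 (SE 0.75), which is -0.44 relative to all peaks, and the peak lay at the 39.4th and 33.6th percentiles in the median WT and G12D libraries.

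Arid3b encodes a DNA-binding protein of the ARID family. Its peak (chr9:57790992-57791046, 3′ UTR), with the 7mer-A1 site, had 7.23, 10.6 and 31.1 normalised counts in WT and 9.26, 41.5 and 76.9 in G12D. The 4 highest libraries were the 3 G12D tumours of batch 2 and WT replicate 4, also of batch 2. Between genotypes the log2 difference was 1.37 (SE 0.65), or 0.04 relative to all peaks (limma adjusted p = 0.133).

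Plagl2 encodes a zinc finger transcription factor that acts in intestinal stem cells and tumours. Its let-7 peak in the 3′ UTR was the strongest member peak with a let-7 site, at 0, 145 and 615 normalised counts in WT and 69.5, 168 and 785 in G12D. The genotypes overlapped over almost the whole range, and 4 tumours of batch 1 stood above all others, with 549 and 615 in WT replicates 2 and 3 and 785 and 734 in G12D replicates 1 and 2. The other 8 tumours ran from 0 to 190. The log2 fold change between genotypes was 1.55 (SE 0.89), 0.23 relative to all peaks (limma adjusted p = 0.177), and without WT replicates 5 and 6 it was 0.0014, or -0.38 relative to all peaks. The exonic Plagl2 peak, with an 8mer, had 4.53, 36.4 and 51.8 in WT and 30.1, 57.4 and 70.1 in G12D. The difference on the log2 scale came to 1.02 (SE 0.66), and -0.31 after subtracting the all-peak median. The remaining 8 Plagl2 peaks had log2 fold changes from 0.29 to 1.88, and none passed the limma test.

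Nr6a1 encodes an orphan nuclear receptor that acts in the embryo and in germ cells. Its strongest peak (chr2:38723373-38723423, 3′ UTR), which carries a miR-23 8mer and no let-7 site, had 0, 8.25 and 47.4 in WT and 8.30, 52.0 and 129 in G12D. In 3 of 6 G12D tumours, those of batch 2, it exceeded every WT tumour. G12D exceeded WT by 2.68 on the log2 scale (SE 0.84), or 1.35 relative to all peaks, 1.20 within batch 1 and 1.43 within batch 2 (limma adjusted p = 0.108). The Nr6a1 peak with 2 let-7 sites was among the weakest members, with 0, 3.40 and 17.8 in WT and 8.20, 12.2 and 22.2 in G12D. Its log2 fold change was 1.88 (SE 0.78), or 0.55 relative to all peaks. The other 2 Nr6a1 peaks had 0.79 and 1.38.

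Zfp644 encodes a zinc finger protein of the nucleus. Its strongest peak (chr5:106694129-106694183, exon), with miR-21-3p and miR-194 sites, had 0, 27.5 and 69.1 in WT and 34.7, 48.0 and 117 in G12D. The groups overlapped, with 1 G12D tumour above every WT tumour. The log2 fold change of 1.91 (SE 0.84) was 0.58 relative to all peaks, -0.07 within batch 1 and 1.17 within batch 2 (limma adjusted p = 0.124). The relative value was 0.24 without WT replicate 5, which stood at 0, and -0.15 without WT replicates 5 and 6.

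Igf1r and Insr encode the receptor tyrosine kinases for insulin-like growth factors and insulin. The Igf1r peak, with an 8mer, had 0, 10.4 and 22.7 in WT and 6.39, 16.0 and 24.1 in G12D, which overlapped. Its log2 fold change was 1.04 (SE 0.71), or -0.29 relative to all peaks (limma adjusted p = 0.235). The Insr peak with an 8mer had 0, 10.3 and 20.1 in WT and 9.22, 18.1 and 32.4 in G12D. The difference on the log2 scale came to 1.73 (SE 0.74), and 0.40 after subtracting the all-peak median. The other Insr peak (chr8:3154283-3154345), 1052 bases away, was slightly stronger, with 0, 13.5 and 30.2 in WT and 13.5, 22.0 and 27.8 in G12D. No G12D tumour exceeded the highest WT tumour there, and the log2 fold change of 1.54 (SE 0.82) became -0.0049 without WT replicates 5 and 6, which were both at 0.

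Cdc34 encodes a ubiquitin-conjugating enzyme of the cell cycle. It held the member peak with the highest mean over all 12 libraries (chr10:79688184-79688238, 3′ UTR), which listed no site of any class, at 36.2, 145 and 636 normalised counts in WT and 295, 705 and 1216 in G12D. The 3 G12D tumours of batch 2 exceeded every WT tumour, and among WT tumours replicate 4 stood highest. The log2 fold change was 2.08 (SE 0.62), or 0.76 relative to all peaks, 1.02 within batch 1 and 0.42 within batch 2 (limma adjusted p = 0.108). An adjacent Cdc34 peak (chr10:79688321-79688375), 82 bases further on, had 0, 43.7 and 104 in WT and 69.4, 132 and 252 in G12D. Its log2 fold change of 2.71 (SE 0.87) was the largest of the members and 1.38 relative to all peaks, but 0.45 within batch 1 and 2.25 within batch 2, and 0.50 without WT replicates 5 and 6, which stood at 4.53 and 0. The 5′ UTR peak of Cdc34 had 0, 18.9 and 42.5 in WT and 32.4, 59.5 and 83.9 in G12D, with 5 of 6 G12D tumours above every WT tumour and a log2 fold change of 2.11 (SE 0.76).

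**Figure D2:**
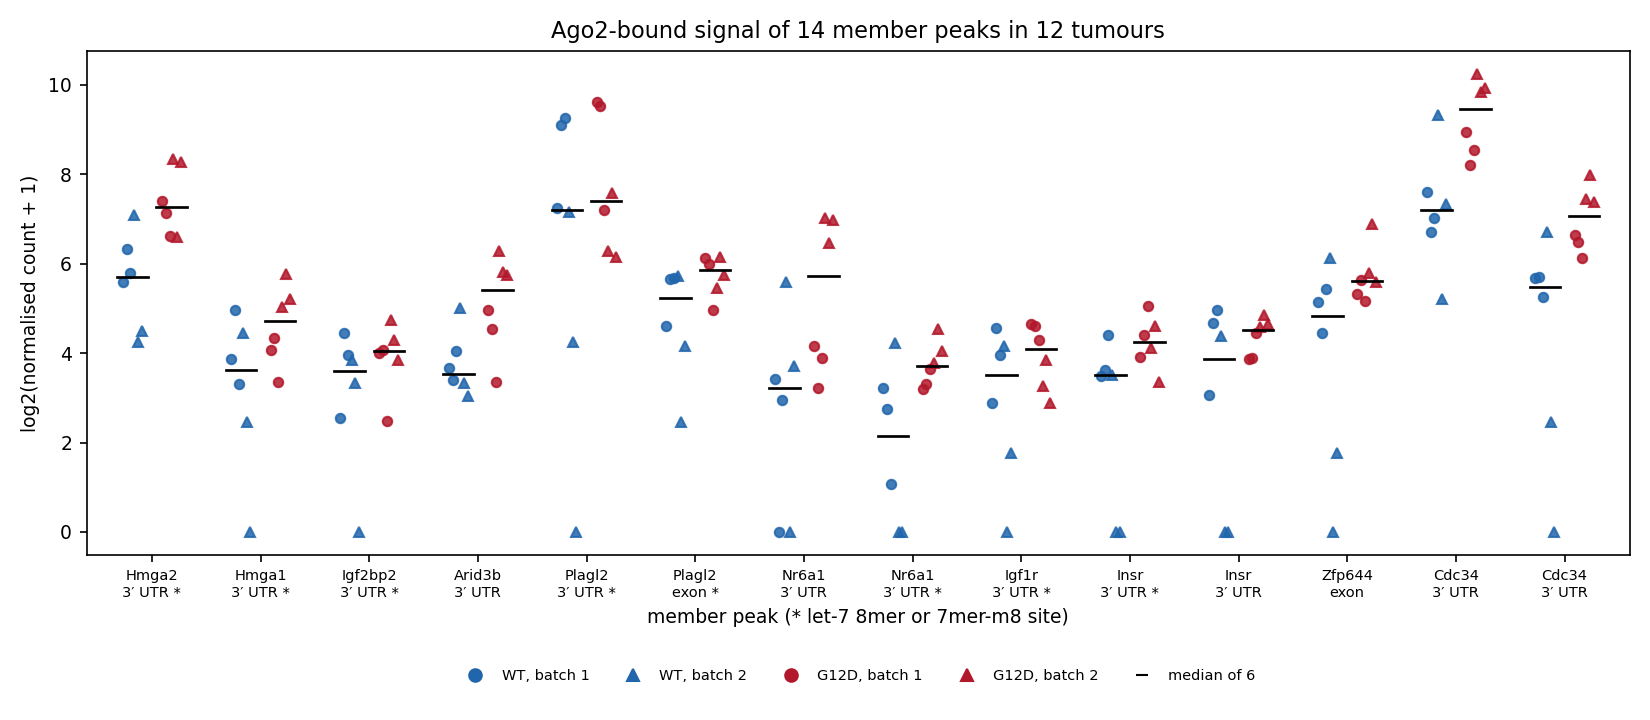
Log2(normalised count + 1) of 14 member peaks in each tumour, for WT (blue) and G12D (red), circles for batch 1, triangles for batch 2 and black bars for the median of 6; an asterisk marks a let-7 8mer or 7mer-m8 site. The genotypes overlap in every peak, and 10 of the 14 peaks have a value of 0 in WT replicate 5 or 6.

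Per base of peak, the strongest peaks of the 10 genes ranked with Cdc34 first at 8.37 ± 7.13 normalised counts per base (SD, n = 12 libraries), then Plagl2 at 5.17 ± 5.22, Hmga2 at 1.94 ± 1.58, Zfp644 at 0.774 ± 0.562 and Nr6a1 at 0.746 ± 0.948. They were followed by Arid3b at 0.501 ± 0.413, Hmga1 at 0.377 ± 0.283, Insr at 0.271 ± 0.163, Igf2bp2 at 0.228 ± 0.128 and Igf1r at 0.166 ± 0.106. This order is over both batches. In batch 1 the Plagl2 peak, at 8.87 ± 5.05 (SD, n = 6), stood above the Cdc34 peak, at 4.79 ± 2.72, in 4 of 6 libraries, and in batch 2 the Cdc34 peak, at 12.0 ± 8.58, stood above the Plagl2 peak, at 1.47 ± 1.29, in 6 of 6. Nr6a1 also changed place, below Arid3b in 5 of 6 libraries of batch 1 and above it in 5 of 6 of batch 2. Each neighbouring pair in the order over all 12 libraries differed by less than the larger of their SDs. Hmga2 exceeded Zfp644 in 11 of 12 libraries, the clearest step, and Zfp644 exceeded Nr6a1 in 8 of 12.

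Together the 29 peaks held 0.368% ± 0.157 of the reads in peaks of WT tumours and 0.520% ± 0.0926 of those of G12D tumours (SD, n = 6 per genotype). The ranges were 0.111% to 0.517% in WT and 0.386% to 0.641% in G12D, and the 2 lowest WT values, 0.111% and 0.240%, were those of replicates 5 and 6, from 34 and 137 member reads. Without these 2 the WT share was 0.464% ± 0.0363 (SD, n = 4), within the range of G12D. The median member peak lay at the 48.9th to 69.6th percentile of all peaks in WT libraries and at the 40.6th to 61.2th in G12D libraries. The 69.6th was that of WT replicate 5, where it stands for 1 read. Without WT replicates 5 and 6 the WT range was the 48.9th to 60.6th, so as a group the members were peaks of middling strength. The authors' peak list for WT tumours overlapped 8 of the 29 member peaks by at least 1 base, 27.6% against 28.1% of all annotated peaks. These 8 were on Hmga2, Plagl2 (4) and Cdc34 (3), while their list for G12D tumours overlapped all 29. The share of all annotated peaks that overlap the G12D list was not computed. The lists hold 2186 and 7569 peaks, against 7585 annotated peaks, so 8 against 29 cannot be read as particular to the members. There is 1 list a genotype, so that they have no replicates.

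Batch was compared after the members' values had been seen. The median log2 difference of all tested peaks, batch 2 minus batch 1, was -0.29. In the same limma fit, 2 of the 29 member peaks passed between batches, both lower in batch 2, against 5.99% of tested peaks that were lower in batch 2. The first was the Plagl2 let-7 peak of the 3′ UTR, with a mean of 497 ± 283 in batch 1 and 82.5 ± 72.2 in batch 2 (SD, n = 6 tumours each) and a log2 difference, batch 2 minus batch 1, of -3.42 (SE 0.89, limma adjusted p = 0.0173). It passed in 9 of the 12 fits that leave out 1 tumour, the largest adjusted p being 0.0616. The second, named after its value was seen, was an intronic Zfp644 peak with a miR-155 site (chr5:106677472-106677522), at 49.8 ± 14.6 in batch 1 and 7.29 ± 6.87 in batch 2 (log2 difference -3.10, SE 0.70, limma adjusted p = 0.00952). It passed in all 12 such fits, and every batch 1 library exceeded every batch 2 library, as in 1.9% of tested peaks.

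Within the Plagl2 transcript the peaks did not all vary together, although 7 of 10 had a lower mean in batch 2. In the let-7 peak, its miR-196 neighbour and 2 further peaks toward the 3′ end, the 4 highest libraries were WT replicates 2 and 3 and G12D replicates 1 and 2. The same 4 libraries led in 5 of the 29 member peaks, the fifth being on Cdc34, and in 11.7% of all tested peaks. The miR-196 neighbour averaged 154 ± 99.4 in batch 1 and 41.3 ± 26.4 in batch 2 (log2 difference -1.91, SE 0.72, limma adjusted p = 0.0925). By contrast, the Plagl2 peak nearest the 3′ end, with a miR-17 family site, averaged 21.2 ± 3.68 in batch 1 and 92.6 ± 67.5 in batch 2 (log2 difference 1.53, SE 0.68, limma adjusted p = 0.159). Its 4 highest libraries were WT replicate 4 and G12D replicates 4 to 6. Those 4 led in 7 member peaks, on Arid3b, Plagl2, Nr6a1 (3) and Cdc34 (2), and in 20.8% of all tested peaks.

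**Figure D3:**
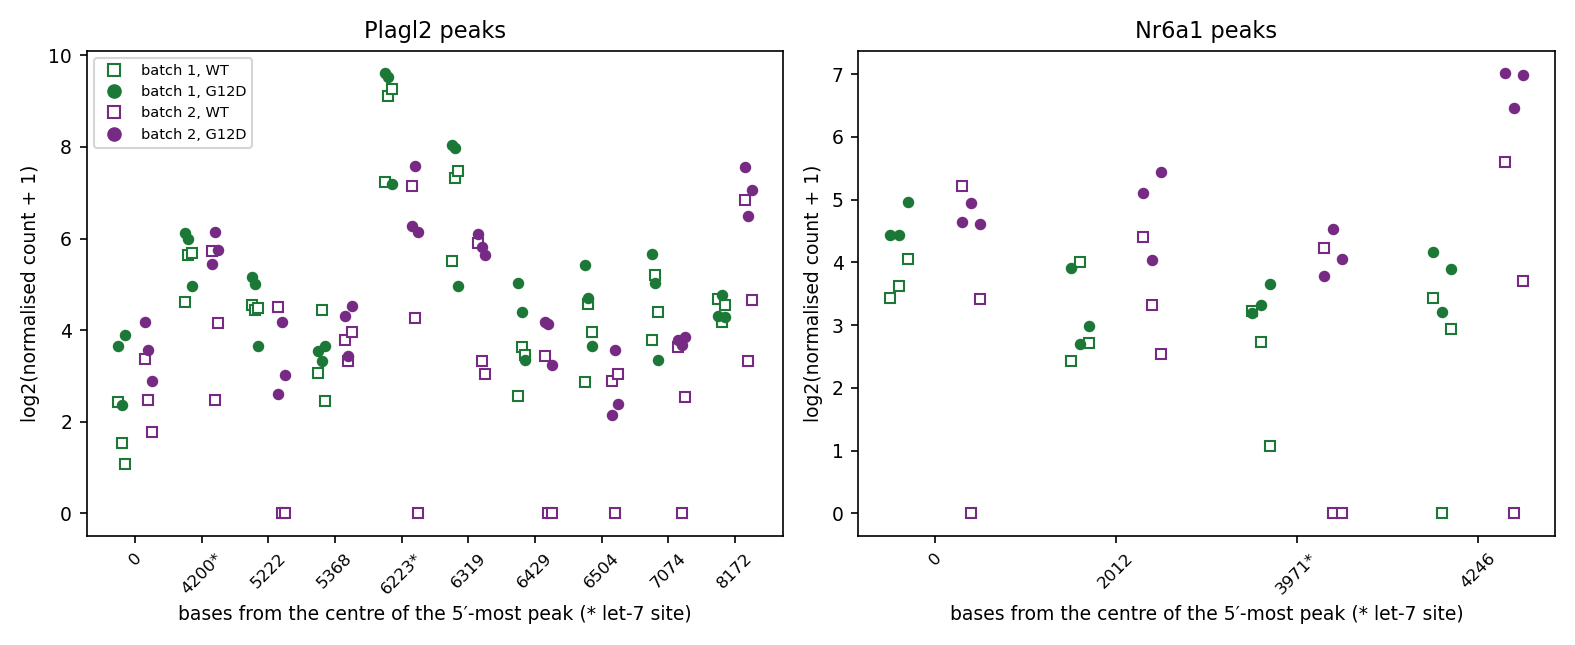
Log2(normalised count + 1) in each tumour for the 10 Plagl2 peaks (left) and the 4 Nr6a1 peaks (right), in transcript order with the genomic distance in bases from the centre of the 5′-most peak, green for batch 1 and purple for batch 2, open squares for WT and filled circles for G12D; an asterisk marks a let-7 site. In Plagl2 the let-7 peak at 6223 bases is high in 4 batch 1 tumours, whereas the peak at 8172 bases is high in 4 batch 2 tumours, as is the Nr6a1 peak at 4246 bases.

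Leaving out WT replicates 5 and 6, both in batch 2, 9 member peaks passed between batches. The median log2 difference of all tested peaks moved to 0.70 in this fit, from -0.29 with all 12 libraries. The differences below are not relative to it. In this fit WT replicate 4 was the only WT tumour of batch 2. Its values for Arid3b and for the strongest Nr6a1 and Cdc34 peaks stood above those of the other WT tumours. Higher in batch 2 were 6, on Nr6a1 (2), Cdc34 (2), Arid3b and Plagl2, against 34.7% of tested peaks, and lower were 3, on Plagl2 (2) and Zfp644, against 6.05%. The strongest Nr6a1 peak, at 9.26 ± 5.88 in batch 1 and 66.9 ± 55.8 in batch 2 over all 12 libraries, had a log2 difference of 3.20 (SE 0.58, limma adjusted p = 0.00175) without those libraries. The Plagl2 peak nearest the 3′ end had 2.51 (SE 0.32, limma adjusted p = 0.000297) and the Plagl2 let-7 peak -1.87 (SE 0.56, limma adjusted p = 0.0185). Opposite directions within 1 3′ UTR were thus present in this fit, and the difference between the peaks was not tested.

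The genotype difference did not pass a test of difference between batches for any of the 29 members, against 0.0399% of tested peaks (limma with an interaction term). At an unadjusted p under 0.05 there were 3 members, against 12.6% of tested peaks, and no other tool was run. The largest such difference was that of the adjacent Cdc34 3′ UTR peak, 3.66 on the log2 scale (limma adjusted p = 0.369). Without WT replicate 4, which leaves the 2 shallow libraries as the WT tumours of batch 2, 14 members passed, or 48.3%, against 57.6% of tested peaks.

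Outside the members, the peaks whose RPM most resembled the Plagl2 let-7 peak over the 12 libraries lay in the 3′ UTRs of Golga7 (Pearson r = 0.982), Mgat4a (0.980) and RP24-345M16.1 (0.976). The measure was the correlation of log2(RPM + 10), and the libraries share depth and batch. None of the 3 had a let-7 8mer or 7mer-m8 site. Among the members the most similar was the miR-196 neighbour on Plagl2 (0.882).

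The let-7 miRNAs bound to Ago2 were measured in libraries of 289462 to 471587 reads. Of 11 family members listed, 9 passed a mean of 10 and were tested, and let-7j and let-7k did not. Of the 9, 0 differed between G12D and WT, against 3.87% of 284 tested miRNAs (limma). At an unadjusted p under 0.05 there were also 0 of the 9, and edgeR and DESeq2 called 0. Summed over the shared seed, WT tumours had 16382 ± 1842 normalised counts of let-7 and miR-98 and G12D tumours 16466 ± 1763 (SD, n = 6 per genotype), or 4.31% and 4.32% of miRNA reads. miR-196a and miR-196b together gave 16737 ± 1887 and 17488 ± 2317, so that the 2 families whose seed sites overlap had like counts. These are read counts, and the amounts bound were not measured.

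Within the family let-7i, let-7b and let-7c made up 78.9% of the sum. let-7i-5p had 5149, 5519 and 6596 normalised counts in WT and 4932, 5380 and 6317 in G12D. let-7b-5p had 3777, 4792 and 5040 in WT and 3954, 4404 and 5269 in G12D, and let-7c-5p 2562, 2849 and 3273 in WT and 2550, 2757 and 3317 in G12D. The groups of these 3 overlapped throughout, with log2 fold changes of -0.03 (SE 0.07), -0.05 (SE 0.09) and -0.02 (SE 0.08). let-7a-5p, at 1320 in the median WT tumour and 1606 in the median G12D tumour, had the largest log2 fold change, 0.62 (SE 0.38, limma adjusted p = 0.438), and 0.19 without WT replicate 5. let-7f-5p had medians of 1124 and 811, let-7d-5p 447 and 431, let-7g-5p 373 and 384, let-7e-5p 135 and 81.8, and miR-98-5p 88.2 and 107, with log2 fold changes from 0.08 to 0.37. Without WT replicate 5 the direction turned for let-7e (-0.52), let-7f (-0.32) and let-7d (-0.06).

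In WT replicate 5, 5 of the 9 family members were lower than in any other tumour. The share of all tested miRNAs that were lowest in this library was not computed. Outside the family, miR-196b-5p was also lowest there, at 9190 against 11360 or more in other WT tumours and 10393 or more in G12D tumours. The 5 therefore cannot be read as particular to the family. let-7a stood at 231 against 1232 to 1852 in the other WT tumours, let-7f at 183 against 862 to 1667, let-7d at 116 against 412 to 563, let-7g at 152 against 213 to 462, and let-7e at 5.33 against 44.0 to 248. In the same library let-7b and miR-98 lay within the range of the other WT tumours, at 4833 and 91.4. There let-7i, at 5149 against 5360 to 6596, and let-7c, at 2562 against 2646 to 3273, were the lowest of the WT tumours but not lower than every G12D tumour. In RefSeq, entries of let-7a, let-7f and let-7d lie within 2183 bases of each other on chromosome 13, and those of let-7e and let-7g on chromosomes 17 and 9. Another let-7f entry lies on chromosome X, as does that of miR-98, and a link between position and these values was not tested. The mRNA library of the same number is the shallowest, while its miRNA library held 429993 reads.

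Between batches 1 of the 9, let-7g-5p, passed and was lower in batch 2, against 13.4% of tested miRNAs that were lower there. Its normalised counts were 388, 437 and 539 in batch 1 and 152, 340 and 379 in batch 2, which do not overlap. The log2 difference was -0.65 (SE 0.19, limma adjusted p = 0.0237), and it passed in 10 of 12 fits that leave out 1 tumour, while without WT replicates 5 and 6 the adjusted p was 0.0502.

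**Figure D4:**
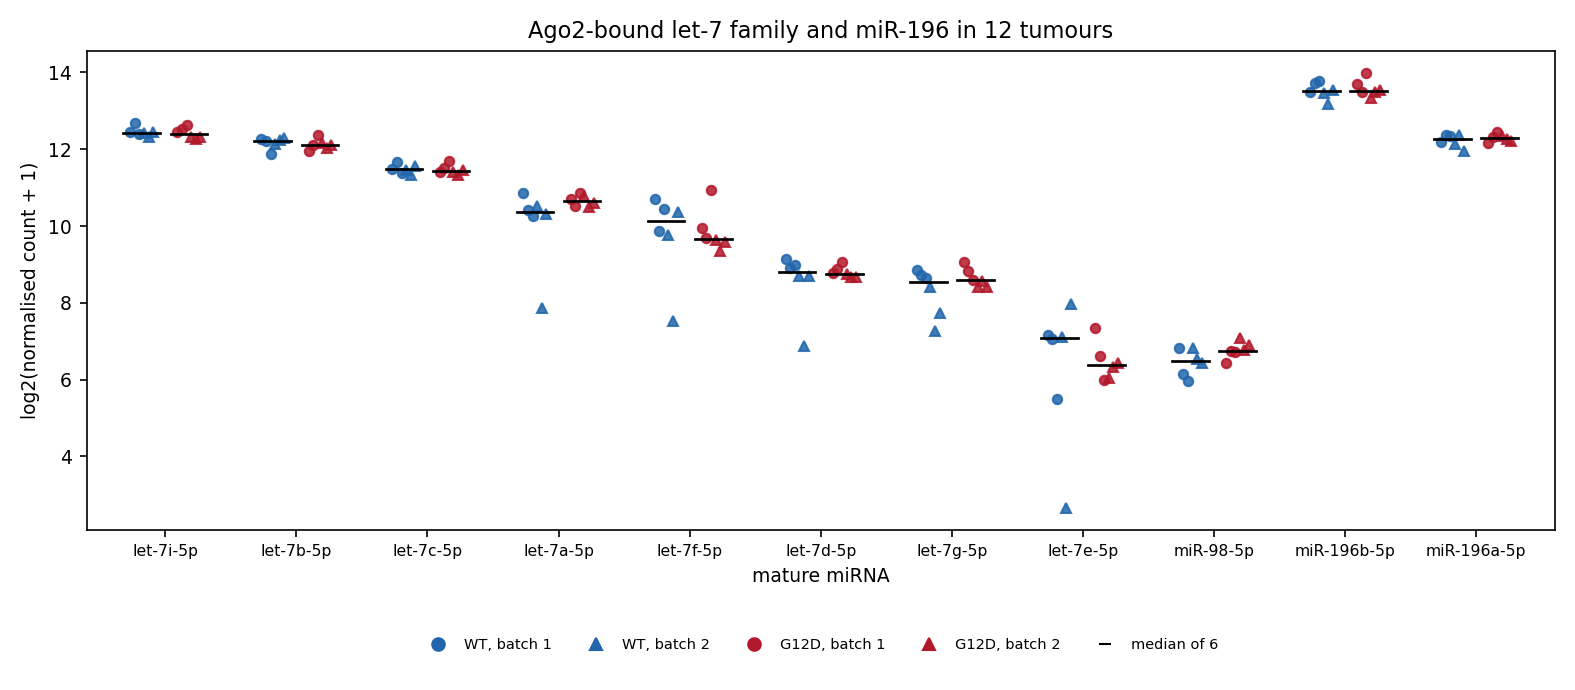
Log2(normalised count + 1) of 9 let-7 family miRNAs and 2 miR-196 miRNAs in each tumour, with colours, symbols and bars for genotype, batch and median as in the plot of member peaks; the vertical axis does not start at 0. The genotypes overlap in all 11 miRNAs, and WT replicate 5 is lowest in let-7a, let-7f, let-7d, let-7g, let-7e and miR-196b.

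Of 30 further genes known or predicted as let-7 targets, 18 had peaks, 67 in all, and 12 of these, on 8 genes, had a let-7 8mer or 7mer-m8 site. Lin28a and Lin28b, which block let-7 maturation, and the Igf2bp2 relatives Igf2bp1 and Igf2bp3 had none. By limma 0 of the 67 passed. At an unadjusted p under 0.05 there were 30, or 44.8%, against the 36.0% of all tested peaks given above, and DESeq2 called 11 as higher (16.4%, against 10.1%) and 0 as lower in G12D. Their median was 0.12 relative to all tested peaks. The most abundant let-7 site peak was in an exon of Dicer1, the enzyme that cuts miRNA precursors (chr12:104702669-104702727), at 9.06, 121 and 211 in WT and 106, 230 and 318 in G12D. The difference on the log2 scale came to 1.48 (SE 0.69), and 0.16 after subtracting the all-peak median. Bach1, a transcriptional repressor, had a 3′ UTR site peak (chr16:87731977-87732032) at 0, 54.8 and 75.8 in WT and 41.0, 58.0 and 67.1 in G12D. Nras, a relative of K-ras, had one (chr3:103064363-103064430) at 0, 17.7 and 32.4 in WT and 16.3, 28.7 and 56.9 in G12D.

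Of 30 genes of the IGF and insulin pathway, 17 had peaks, 40 in all, and 4 of these, on 3 genes, had a let-7 site. By limma 0 of the 40 passed. Both the 11 at an unadjusted p under 0.05 (27.5%) and the 3 that DESeq2 called higher in G12D (7.5%) were smaller shares than those of all tested peaks, 36.0% and 10.1%. DESeq2 called 0 as lower, and the median was -0.17 relative to all tested peaks. The ligands Igf1 and Igf2 had no peak. Irs2, the adaptor downstream of both receptors, had a let-7 site peak in its 3′ UTR (chr8:10986496-10986553) at 0, 27.3 and 47.4 in WT and 39.4, 52.2 and 64.1 in G12D. The difference on the log2 scale came to 2.04 (SE 0.80), and 0.71 after subtracting the all-peak median (limma adjusted p = 0.112). Igf2r, which clears Igf2 from the cell surface, had let-7 site peaks in its 3′ UTR and an exon, with relative values of -0.28 and 0.02, and Igfbp3, a binding protein of the ligands, had one in an exon at -0.16.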

How the data were processed

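Values came from the mRNA and miRNA libraries of 12 tumours, 2 of the 3 libraries that each gave. Input values were not used here. The submitters' processing notes list STAR 2.5.2b, DESeq2, mm10 and GRCm38 with no role for any, and how peaks were called is not stated in them. The deposited signal tables hold read counts divided by a size factor per library. Peak columns carry a model and a number with no library type, and are read here as mRNA libraries. Whole reads were recovered for 100% of values (tolerance 0.001 reads), and 1 mRNA read stands for 0.482 to 4.53 normalised counts. The authors' deposited log2 fold changes and adjusted p-values are named as theirs where used. The score in the authors' peak lists was not used for any value printed.

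Genotypes were compared with limma-trend (version 3.58.1 under R 4.3.3) on log2(value + 1) and batch as covariate. Peaks needed a mean of 5 or more (7527 passed) and miRNAs of 10 or more (284 passed), and Benjamini-Hochberg adjustment ran over every tested feature at 0.05. The added 1 shrinks differences of low peaks. Because values were normalised, edgeR 4.0.16 and DESeq2 1.42.0 on recovered reads were alternatives. Percentiles are over all 7730 peaks of a library.

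The members, lists and tests were chosen with earlier results of these data known. Named were each gene's strongest peak, every member peak with a let-7 8mer or 7mer-m8 site, the 3 member peaks with the smallest p, the one with the largest difference between batches, and all tested let-7 miRNAs; the Cdc34 5′ UTR peak, the intronic Zfp644 peak and further Plagl2 peaks were named after their values were seen. Likeness was taken over peaks with a mean of at least 20. Peaks that share sequence with paralogs, such as those of Hmga1, can share reads.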

Additional observations from a re-analysis of the deposited data

Results flagged for a closer look

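In 8 of 46 groups of 6 tumours, or 17.4%, 1 tumour lay far from the rest by the Dixon criterion, taken on normalised counts. The groups were 14 peaks and 9 miRNAs in each genotype. The criterion is set to flag about 1 in 20 groups of normal values from 1 population. These groups mix 2 batches and unequal depths, so their share cannot be read against that rate. Of the flagged values on peaks, 3 were those of WT replicate 4, above the other WT tumours. They were 31.1 normalised counts for Arid3b, 636 for the strongest Cdc34 peak and 47.4 for the strongest Nr6a1 peak. The exonic Zfp644 peak stood at 117 in G12D replicate 5, above the other G12D tumours. Among miRNAs, let-7d-5p stood low at 116 in WT replicate 5, let-7i-5p high at 6596 in WT replicate 2, let-7e-5p high at 160 in G12D replicate 1 and let-7f-5p high at 1954 in G12D replicate 3.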

How the results depend on the processing

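Of the 29 member peaks 0 passed between genotypes in the main fit. The count was 4 with DESeq2, 3 with a pseudocount of 5, 7 with library quality weights and 1 in batch 2 only, and 0 to 12 when 1 tumour was left out, the 12 without WT replicate 4. Over all tested peaks the calls were 0 in the main fit, 787 with DESeq2, 513 with a pseudocount of 5, 853 with quality weights, 258 in batch 2 only and 3404 without WT replicate 4. With 0 member calls they were 10 with edgeR, 123 with DESeq2's own size factors and 3 without WT replicates 5 and 6. The interaction gave 0 to 14 member peaks when 1 tumour was left out, the 14 (48.3%) without WT replicate 4, where 57.6% of tested peaks passed. The batch comparison gave 7 member peaks with TMM factors (24.1%, against 19.9% of tested peaks), 6 with a pseudocount of 5 (20.7%, against 16.3%), 9 without WT replicates 5 and 6 (31.0%, against 40.8%), and 1 to 6 when 1 tumour was left out, where 271 to 1506 of all tested peaks passed; these alternatives were chosen after seeing the data. Counting 8mer sites alone, 5 member peaks had a let-7 site. The median of the members relative to all peaks ran from -0.39 to 0.16 over 26 alternatives, and that of the members with a let-7 site from -0.16 to 0.42.

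Fold changes of 14 named peaks kept their direction in all but 9 of 359 alternatives. In the main fit 96.1% of all tested peaks were positive, so a kept direction is not particular to these peaks. With DESeq2's own size factors the fold changes were -0.21 for Igf1r, -0.20 for the Insr peak without a let-7 site, -0.15 for Igf2bp2 and -0.084 for the Plagl2 exon. In batch 1 only they were -0.17 for that Insr peak, -0.13 for Igf2bp2 and -0.12 for Hmga1. That Insr peak had -0.53 with quality weights and -0.0049 without WT replicates 5 and 6. Relative to all peaks, leaving out WT replicates 5 and 6 turned Hmga1 from 0.13 to -0.16 and that Insr peak from 0.21 to -0.38. It also turned the Plagl2 let-7 peak of the 3′ UTR from 0.23 to -0.38 and the exonic Zfp644 peak from 0.58 to -0.15. The remaining named peaks kept the sign of their relative value in that fit.

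For the let-7 miRNAs 26 of 234 alternatives changed direction, none of them a call. let-7e-5p had -0.38 with edgeR, DESeq2 and its own size factors, -0.28 with quality weights, -0.23 without WT replicates 5 and 6, -0.52 (without WT replicate 5) to 0.66 when 1 tumour was left out, with -0.00661 without WT replicate 3. let-7f-5p had -0.0855 with edgeR, -0.0853 with DESeq2, -0.0906 with its own size factors, -0.21 with quality weights, -0.18 without WT replicates 5 and 6, -0.15 in batch 1 only, -0.32 (without WT replicate 5) to 0.31 when 1 tumour was left out, with -0.056 without G12D replicate 3. let-7d-5p had -0.0751 without WT replicates 5 and 6, -0.10 in batch 1 only and -0.0613 (without WT replicate 5) to 0.35 when 1 tumour was left out. let-7c-5p had 0.00738 with TMM factors, 0.024 in batch 1 only and -0.0608 to 0.0118 when 1 tumour was left out, above 0 in 4 of those fits. In batch 1 only let-7b-5p had 0.020 and let-7i-5p 0.029. The causes were not tested.

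The replicate block changed no call: 0 member peaks and 0 let-7 miRNAs passed, and the relative median of the members stayed at 0.04. Same-numbered tumours of the 2 genotypes had deviations correlated from -0.516 to 0.306 in peaks, with 1 of 6 above 0.1 and 1 of 6 closest to its own number, so the numbers were not taken as pairing. The depth of WT replicates 5 and 6 limits every genotype value of the low peaks.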
